A study of Mus musculus with 6 samples.

Results

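The miR-17-92 cluster and its paralogs are a set of microRNA genes that arose by duplication and are read out as small RNAs of about the same length. A microRNA guides Argonaute proteins to messenger RNAs that pair with its seed, bases 2 to 8 from the 5′ end, so microRNAs with one seed are grouped as a family. The cluster is known as a target of the transcription factor MYC and as a set of growth-promoting, anti-apoptotic RNAs in proliferating cells, and it is needed for normal development of several tissues. Each precursor hairpin gives a 5p and a 3p arm, of which the guide arm is loaded and the passenger arm is mostly degraded. Members were taken by name, as every deposited feature named miR-17, miR-18a, miR-18b, miR-19a, miR-19b, miR-20a, miR-20b, miR-25, miR-92a, miR-92b, miR-93, miR-106a or miR-106b, with rows of the same name and sequence summed. This gave 21 members among 756 features. They are 18 distinct mature arms and 3 sequence variants. Of the members, 12 were listed in all 6 libraries and 9 in fewer, including 2 listed in a single library.

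Small RNA was sequenced from 6 libraries labelled Mes23.5, a dopaminergic hybrid of mouse neuroblastoma and rat midbrain cells. One group had received extracellular vesicles from microglia that overexpress SIX2, a homeobox transcription factor (SIX2_EV, n = 3), and the other had received vesicles from control microglia (control_EV, n = 3). All 6 libraries, those of the control group included, were labelled as stimulated for 24 h with LPS, a bacterial cell wall component. The growth protocol names BV2, a mouse microglial line, so the cell of origin is given as labelled. How SIX2 was overexpressed, the vesicle dose, the control construct and whether replicates were separate cultures are not stated, and p-values measure only the spread from library to library, which may be technical in origin. RNA carried in by vesicles and RNA made by the recipient cells cannot be told apart in these libraries.

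The libraries held between 179621 and 421279 deposited reads. Names of mature miRNAs that had a mouse hairpin accounted for 13.9%, 6.78% and 32.6% of the reads in SIX2_EV libraries 1 to 3, against 31.5%, 56.7% and 70.8% in control_EV libraries 1 to 3. SIX2_EV library 3 lay just above control_EV library 1, and the others were apart. Because of this gap, whose part in the differences was not tested, every level below depends on what it is divided by, and levels are given on 2 scales. One is the percent of the mature miRNA reads of a library, and the other is CPM, reads scaled to the TMM library size of edgeR. Sequences were listed from about 5 reads per library, which equals between 22.7 and 70.0 CPM in the SIX2_EV libraries and between 4.47 and 18.3 CPM in the control_EV libraries. Myeloid marker miRNAs had a summed level of 30880 to 32610 CPM in SIX2_EV, against 24820 to 47520 CPM in control_EV over 6 of 6 markers. Most of that sum was miR-146a-5p, an LPS-inducible miRNA, whose CPM values were 28680, 29290 and 25470 in SIX2_EV, against 32960, 41700 and 18820 in control_EV. miR-223-3p, a marker of mature myeloid cells, was low, at 0, 0 and 277 CPM in SIX2_EV, against 121, 95.1 and 412 CPM in control_EV. Neuronal markers summed to 2054 to 3037 CPM in SIX2_EV, against 2302 to 3314 CPM in control_EV. Most of this sum was miR-7a-5p, at 1946 to 2605 CPM in SIX2_EV and 1570 to 2888 CPM in control_EV. miR-128-3p stood at 76.1, 126 and 100 CPM in SIX2_EV and at 183, 270 and 278 CPM in control_EV. Its log2 fold change was -1.28 (edgeR adjusted p = 0.489), beside -0.74 for miR-129-5p and -0.06 for miR-7a-5p. edgeR called 0 of these 3. miR-218-5p as well as miR-9-5p stood at 0 throughout SIX2_EV. In control_EV miR-218-5p had 0, 0 and 21 reads and miR-9-5p had 7, 0 and 0. Those control_EV means, 6.26 and 8.53 CPM, lie under the listing limit of every SIX2_EV library. Of these 8 neuronal markers 5 were listed, and miR-124-3p, miR-137-3p and miR-138-5p, which mark neurons, were not. The red blood cell markers miR-451a, miR-144-3p and miR-486a-5p summed to 13890 to 21240 CPM in SIX2_EV, against 8682 to 30680 CPM in control_EV. The part of these cell type markers in the differences below was not tested.

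The guide arms fall into 4 seed families, shown here as deposited, 5′ to 3′, with T for U and the seed in capitals. The miR-17 family has the seed AAAGTGC in its 4 guide arms.
miR-17-5p: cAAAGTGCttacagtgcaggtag
miR-20a-5p: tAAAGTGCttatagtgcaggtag
miR-93-5p: cAAAGTGCtgttcgtgcaggtag
miR-106b-5p: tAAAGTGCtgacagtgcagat
The miR-18 seed differs from that of miR-17 in 1 letter, and it had 1 member.
miR-18a-5p: tAAGGTGCatctagtgcagatag
The miR-19 family had 2 members, which differ from each other only at position 11 (T11C from miR-19a to miR-19b, counted from the 5′ end).
miR-19a-3p: tGTGCAAAtctatgcaaaactga
miR-19b-3p: tGTGCAAAtccatgcaaaactga
The miR-25/92 family had 3 members, which are 3p arms with a common seed.
miR-25-3p: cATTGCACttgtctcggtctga
miR-92a-3p: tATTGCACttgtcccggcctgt
miR-92b-3p: tATTGCACtcgtcccggcctcc
Within the miR-17 family, miR-17-5p and miR-20a-5p differ at 2 of 23 bases (C1T and C12T from miR-17 to miR-20a), while miR-93-5p and miR-106b-5p differ at 5 of the 21 bases compared.

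The hairpins of the miR-17-92 cluster were placed by the authors on the plus strand of chromosome 14, where 6 hairpins lie between positions 115281103 and 115281952, a span of 850 bases. The miR-106b-25 cluster was placed on the minus strand of chromosome 5, with 3 hairpins between 138163575 and 138164080. A further 4 hairpins lie on the minus strand of the X chromosome between 51830715 and 51831480, the place of the miR-106a-363 cluster, and miR-92b stands alone on the minus strand of chromosome 3 (89134415 to 89134525). These positions are as deposited, on a build that the sources used here leave unnamed and that differs from GRCm38. In the GRCm38 annotation the miR-17-92 hairpins lie in an exon of the long noncoding RNA Mir17hg. There Mir106b lies in an intron of the protein-coding gene Mcm7, a subunit of the replicative helicase, on the same strand, and Mir93 and Mir25 overlap an exon of at least 1 Mcm7 transcript. The miR-17 hairpin shows the arrangement of both arms, which are in capitals.
mir-17 hairpin: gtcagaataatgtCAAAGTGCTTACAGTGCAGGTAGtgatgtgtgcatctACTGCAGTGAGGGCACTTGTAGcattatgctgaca

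Most of the members carry rat names in the deposited table. A RefSeq mouse mature sequence matched 19 of the 21, and all 19 were equal to it over the shared length, 13 of them end to end and the others with 1 base more at the 3′ end. For 4 of the rat-named members the rat and mouse forms differ, at 6 bases in all, and every one of the 6 carried the mouse base. The passenger arm of miR-17 is an example, with A11G and G21A from the rat reference given in the deposited table to the deposited form. The changed bases lie outside the seed.
rat reference miR-17-1-3p: actgcagtgaaggcacttgtgg
deposited rno-miR-17-1-3p_2ss11AG21GA: aCTGCAGTgagggcacttgtag
No deposited sequence began with the first 20 bases of any of these 4 rat forms.

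The members together took a smaller part of the mature miRNA reads with SIX2_EV than with control_EV. The share was 10.7%, 11.1% and 7.79% in SIX2_EV libraries 1 to 3, against 13.3%, 13.6% and 12.7% in the control_EV libraries. The means were 9.86% ± 1.80 in SIX2_EV and 13.2% ± 0.445 in control_EV (SD, n = 3 each), and the groups did not overlap. The widest Wilson 95% interval of a single library, 10.6% to 11.6% in SIX2_EV library 2, also lay below the control_EV shares, but it covers counting error only. As a share of all deposited reads, the members took 1.49%, 0.750% and 2.54% in SIX2_EV and 4.19%, 7.70% and 9.01% in control_EV. Being a sum over chosen members, these shares carry no p-value.

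No member passed edgeR's quasi-likelihood test after Benjamini-Hochberg adjustment over all features. Of 319 features tested 0 were called, a background of 0%, and of 14 members tested 0 were called, while 7 of them had an unadjusted p under 0.05, all lower in SIX2_EV. Over all features that unadjusted threshold was met by 39 (12.2%) in either direction and by 21 (6.58%) in the lower direction. DESeq2 called 20 of the 319 features (6.27%), 7 of them lower in SIX2_EV (2.19%), among which was 1 member, miR-18a-3p. On the CPM scale the groups did not overlap for 7 members, all lower in SIX2_EV, while 0 members were apart and higher, against 19 of 319 features (5.96%). The background of features apart and lower was 54 of 319 (16.9%) and 49 of 210 mature features (23.3%). The 7 members were miR-17-5p, miR-20a-5p, miR-93-5p, miR-106b-5p, miR-19a-3p, miR-92a-3p and miR-18a-3p, the same 7 that had an unadjusted p under 0.05. miR-93-5p and miR-106b-5p have hairpins in the chromosome 5 cluster and the others in the chromosome 14 cluster. Neither count is therefore one of independent members. As a percent of mature reads, 2 members stayed apart, miR-17-5p and miR-18a-3p, against a background of 30 of 319 features (9.40%), and as a share of all reads 10 members did, against 92 of 319 (28.8%). The count of separated members thus follows the scaling. miR-18a-3p is among the members apart on each scale and among those with an unadjusted p under 0.05, but it was listed at 0 throughout SIX2_EV. Its control_EV mean of 41.1 CPM lies below the 46.8 CPM that 5 reads are worth on average in SIX2_EV. Its separation therefore cannot be told from the listing limit.

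By log2 fold change, 13 of the 14 tested members were below 0, against a background of 206 of 319 features (64.6%) and 167 of 210 mature features (79.5%). The median log2 fold change was -0.80 over the 14 members, -0.30 over all 319 features and -0.42 over the 196 other mature features. Over the 12 members listed in every library the median was -0.65. The median over the tested members was -0.51 without control_EV library 3, against -0.04 over all features of that fit. With zeros set to 4 reads it was -0.45, against -0.06 over all features. With TMM factors taken from mature features only, 10 of the 13 members tested were below 0, with a median of -0.50 against -0.20 over all 195 features of that fit. On total counts both medians lay further down, at -2.11 for the members and -1.52 for all features. There 14 of the 14 members were below 0, as was the median of all features. The share of all features below 0 is not given for this fit or for the one over mature features. Under all 3 scalings the median of the members was below that of all features. With no filter on low counts the 2 medians were close, at -1.02 for 21 members and -1.05 for all 756 features.

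**Figure D1:**
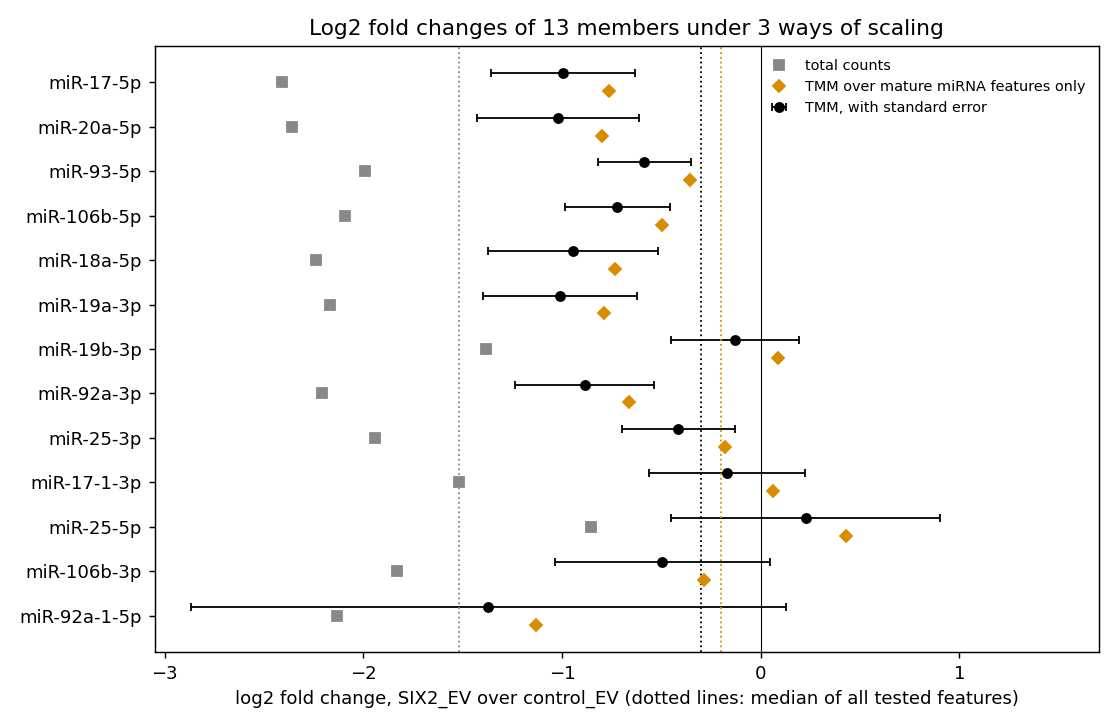
Log2 fold change (SIX2_EV over control_EV, horizontal axis) of 13 tested members under 3 scalings, with the edgeR standard error on the TMM values and dotted lines at the median of all tested features; miR-18a-3p, listed at 0 throughout SIX2_EV, is left out. miR-17-5p, miR-20a-5p, miR-93-5p, miR-106b-5p, miR-18a-5p, miR-19a-3p, miR-92a-3p, miR-106b-3p and miR-92a-1-5p lie left of the dotted median under each scaling. miR-25-3p lies left of it except over mature features only, while miR-19b-3p, miR-17-1-3p and miR-25-5p lie at or to the right of it.

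In the miR-17 seed family, whose targets include the cell cycle inhibitor p21 and the pro-apoptotic protein BIM, the 4 guide arms ran in the order miR-20a, miR-17, miR-93, miR-106b by mean level in both groups. miR-20a-5p, the member with the most reads in all but library 3 of each group, where miR-92a-3p had more, took 3.05%, 3.01% and 1.71% of mature reads in SIX2_EV, against 4.39%, 4.81% and 2.79% in control_EV. The third control_EV library lay below the first SIX2_EV library, so the groups overlapped on that scale. In CPM, miR-20a-5p stood at 7238, 6650 and 4678 in SIX2_EV and at 13020, 17270 and 7447 in control_EV. There the groups were apart, by a narrow gap between SIX2_EV library 1 and control_EV library 3. The edgeR log2 fold change of miR-20a-5p was -1.02 (SE 0.41, adjusted p = 0.369).

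miR-17-5p, the arm that names the cluster, took 1.67%, 1.66% and 0.808% of mature reads in SIX2_EV, against 2.28%, 2.33% and 1.68% in control_EV. It was the one abundant member whose groups stayed apart on every scale, though here by a narrow gap. Its CPM values were 3966, 3668 and 2210 in SIX2_EV and 6757, 8354 and 4486 in control_EV, and the log2 fold change was -0.99 (SE 0.36, adjusted p = 0.369). The ratio of miR-20a-5p to miR-17-5p, which come from one primary transcript, was 1.83, 1.81 and 2.12 in SIX2_EV and 1.93, 2.07 and 1.66 in control_EV, and the groups overlapped (exact two-sided permutation p = 0.9).

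The 2 members of this family on chromosome 5 sat closer together between groups. miR-93-5p took 1.007%, 1.268% and 0.773% of mature reads in SIX2_EV, against 1.17%, 1.17% and 1.23% in control_EV, and the second SIX2_EV library was the highest of all 6. In CPM it averaged 2434 ± 345 in SIX2_EV and 3653 ± 493 in control_EV (SD, n = 3 each), and the log2 fold change was -0.59 (SE 0.23, edgeR adjusted p = 0.369). miR-106b-5p took 0.313%, 0.463% and 0.281% of mature reads in SIX2_EV, against 0.473%, 0.450% and 0.431% in control_EV, and again SIX2_EV library 2 lay among the controls. Its mean was 844 ± 155 CPM in SIX2_EV, against 1390 ± 234 CPM in control_EV (SD, n = 3 each), and the log2 fold change was -0.72 (SE 0.26, edgeR adjusted p = 0.369). Summed over the family, the CPM level was 14330, 14140 and 9770 in SIX2_EV, against 24650, 31470 and 16370 in control_EV.

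miR-18a-5p, the lowest guide arm of the miR-17-92 cluster, had 65, 27 and 70 reads in SIX2_EV and 267, 415 and 575 reads in control_EV. That is 0.261%, 0.171% and 0.116% of mature reads in SIX2_EV and 0.329%, 0.289% and 0.193% in control_EV, with overlap through the third control_EV library. The CPM values also overlapped, at 618, 378 and 318 in SIX2_EV against 976, 1039 and 514 in control_EV, and the log2 fold change was -0.94 (SE 0.43, edgeR adjusted p = 0.477). The ratio of miR-20a-5p to miR-18a-5p averaged 14.7 ± 2.94 in SIX2_EV and 14.8 ± 1.67 in control_EV (SD, n = 3 each).

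The miR-19 family held a contrast between close relatives. miR-19a-3p had 67, 28 and 124 reads in SIX2_EV and 284, 596 and 757 reads in control_EV. Its CPM values were 637, 392 and 564 in SIX2_EV and 1038, 1492 and 677 in control_EV. They did not overlap, by a narrow gap between SIX2_EV library 1 and control_EV library 3. The log2 fold change of miR-19a-3p was -1.01 (SE 0.39, edgeR adjusted p = 0.369). miR-19b-3p, which differs from it by 1 base, had 332, 228 and 615 reads in SIX2_EV and 1004, 1720 and 2277 reads in control_EV. Its CPM values, 3158, 3192 and 2796 in SIX2_EV and 3671, 4305 and 2036 in control_EV, overlapped, and its log2 fold change was -0.13 (SE 0.32, edgeR adjusted p = 0.900), with a sign that turned under other scalings. As a percent of mature reads miR-19a-3p stood at 0.269, 0.178 and 0.206 in SIX2_EV and 0.350, 0.415 and 0.254 in control_EV, with overlap. On that scale miR-19b-3p stood at 1.33, 1.45 and 1.02 in SIX2_EV and 1.237, 1.198 and 0.763 in control_EV, also with overlap.

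A ratio of 2 members within one library does not depend on the scaling between libraries. The ratio of miR-19b-3p to miR-19a-3p was 4.96, 8.14 and 4.96 in SIX2_EV, against 3.54, 2.89 and 3.01 in control_EV. All 3 SIX2_EV libraries lay above all 3 control_EV libraries, with means of 6.02 ± 1.84 in SIX2_EV and 3.14 ± 0.345 in control_EV (SD, n = 3 each). The exact two-sided permutation test gave p = 0.1, the smallest that 3 against 3 libraries allow, and 0.8 after Benjamini-Hochberg adjustment over the 8 ratios computed. The highest ratio rests on the 28 reads of miR-19a-3p in SIX2_EV library 2. miR-19b has a hairpin on chromosome 14 and another on X with the same 23 bases, so its reads cannot be assigned to either, whereas miR-19a has 1 hairpin.

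**Figure D2:**
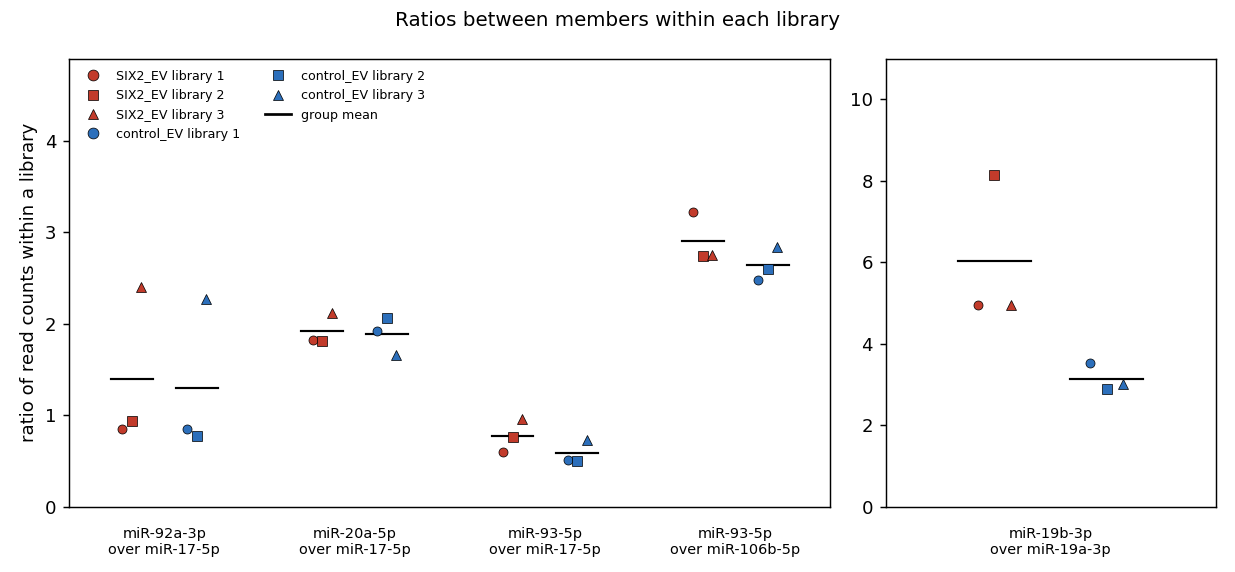
Ratio of read counts of 2 members within each library (vertical axes, linear from 0), for 4 pairs on the left and miR-19b-3p over miR-19a-3p on the right, with points for libraries and bars for group means. The miR-19 pair is apart between groups (4.96 to 8.14 in SIX2_EV, 2.89 to 3.54 in control_EV), and library 3 of each group stands high for miR-92a-3p over miR-17-5p.

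Among the miR-25/92 family, miR-92a-3p, a miRNA with a known role in blood vessel growth, took 1.42%, 1.55% and 1.94% of mature reads in SIX2_EV, against 1.95%, 1.79% and 3.81% in control_EV. The third library was the highest of its group in each case. In CPM, miR-92a-3p stood at 3367, 3430 and 5310 in SIX2_EV and at 5777, 6419 and 10180 in control_EV, without overlap, and the log2 fold change was -0.89 (SE 0.35, edgeR adjusted p = 0.369). The ratio of miR-92a-3p to miR-17-5p, 2 ends of the same cluster, was 0.849, 0.935 and 2.40 in SIX2_EV and 0.855, 0.768 and 2.27 in control_EV. Library 3 of each group thus held more than 2 miR-92a-3p reads for each miR-17-5p read and the other 4 libraries fewer than 1, a split that runs across the groups (exact permutation p between groups = 0.6, adjusted 0.96 over 8 ratios).

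miR-92a-3p also has a hairpin in each of 2 clusters, and the deposited form ends in a base at which they differ. Its last base matches the chromosome 14 hairpin, and against the X hairpin it reads A22T (position 22 from the 5′ end of the arm, hairpin base first). This base lies 1 past the RefSeq arm, and whether it was copied from the genome was not tested, so the reads are not assigned to either hairpin. Both hairpins are shown with the annotated arms in capitals.
mir-92a-1 hairpin: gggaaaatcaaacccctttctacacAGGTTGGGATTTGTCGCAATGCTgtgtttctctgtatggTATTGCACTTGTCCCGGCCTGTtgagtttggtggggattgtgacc
mir-92a-2 hairpin: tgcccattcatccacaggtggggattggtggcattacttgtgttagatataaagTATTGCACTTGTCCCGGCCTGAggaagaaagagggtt
The table lists the reads of this form at both positions.

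miR-25-3p had 274, 163 and 326 reads in SIX2_EV and 666, 1230 and 3321 reads in control_EV. Its CPM values overlapped, at 2606, 2282 and 1482 in SIX2_EV against 2435, 3078 and 2970 in control_EV, and the log2 fold change was -0.41 (SE 0.28, edgeR adjusted p = 0.603). As a percent of mature reads it stood at 1.10, 1.03 and 0.542 in SIX2_EV and 0.821, 0.857 and 1.11 in control_EV, where the third library was lowest with SIX2_EV and highest with control_EV. miR-92b-3p was near the listing limit, with 6 reads in SIX2_EV library 1 and 6 and 17 reads in control_EV libraries 2 and 3.

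**Figure D3:**
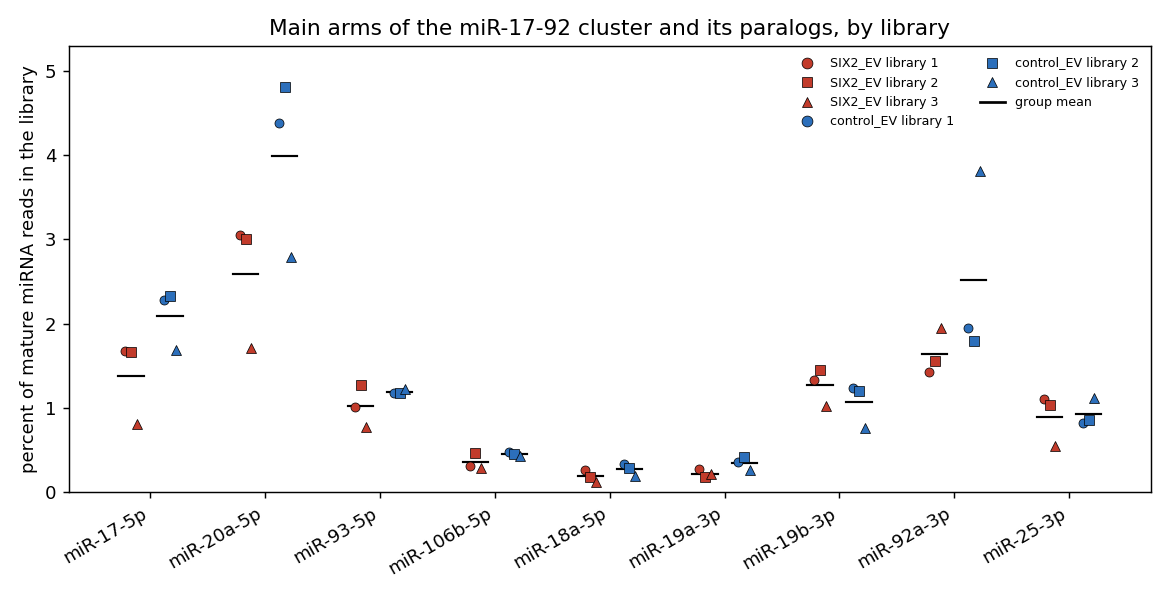
Percent of the mature miRNA reads of each library (vertical axis) taken by 9 guide arms, with SIX2_EV in red left of control_EV in blue, 1 point per library and a bar at the group mean. miR-20a-5p reaches 4.81% in control_EV library 2 and 3.05% in SIX2_EV library 1, and miR-92a-3p is highest in library 3 of each group (1.94% in SIX2_EV, 3.81% in control_EV).

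Within the members, the miR-19 family took a larger share with SIX2_EV. It made up 14.9%, 14.7% and 15.8% of member reads in SIX2_EV, against 11.9%, 11.9% and 7.998% in control_EV, which did not overlap. Most of its reads in every library were miR-19b-3p (log2 fold change -0.13), while miR-19a-3p was at -1.01. In CPM the family was not higher, at 3580 ± 218 in SIX2_EV and 4406 ± 1564 in control_EV (SD, n = 3 each), with overlap. The miR-17 family made up 56.3%, 57.9% and 45.9% in SIX2_EV and 62.4%, 64.5% and 48.3% in control_EV, with overlap. The miR-25/92 family made up 23.7%, 23.4% and 31.9% in SIX2_EV and 20.8%, 19.5% and 38.8% in control_EV. In both groups library 3 had the lowest share of the miR-17 family and the highest of the miR-25/92 family. The miR-18 family stayed between 1.49% and 2.43% in SIX2_EV and between 1.52% and 2.47% in control_EV.

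**Figure D4:**
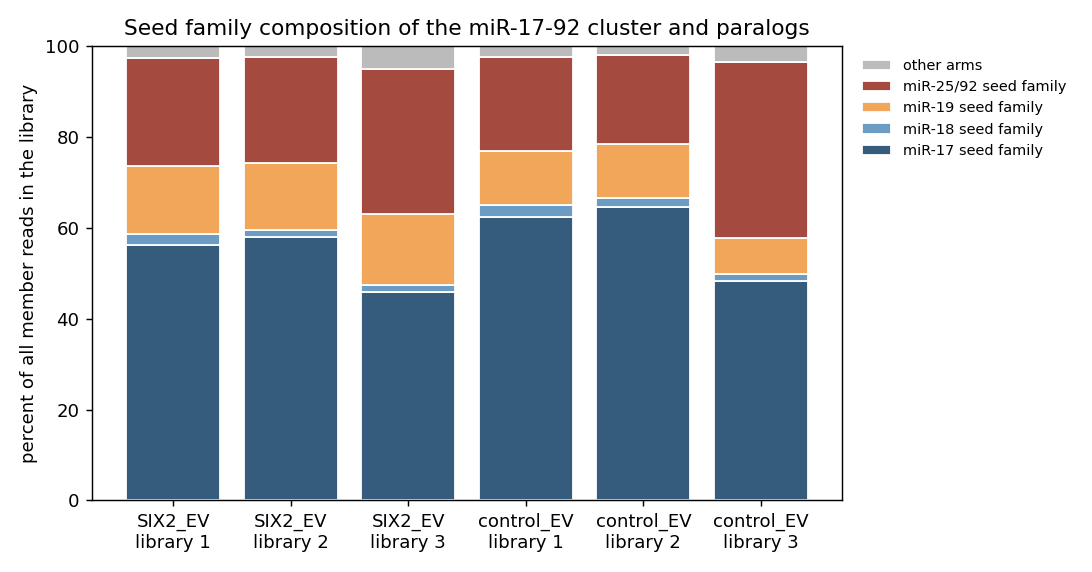
Share of all member reads in each library (stacked bars, percent) by seed family, with the arms outside these families in grey. The miR-19 share is 14.7% to 15.8% in SIX2_EV and 7.998% to 11.9% in control_EV, and the miR-25/92 share is widest in library 3 of each group.

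By genomic cluster, miR-106b, miR-93 and miR-25 together took 24.2%, 26.1% and 23.5% of the reads of the clusters in SIX2_EV, against 19.7%, 19.01% and 23.7% in control_EV. The means were 24.6% ± 1.35 in SIX2_EV and 20.8% ± 2.55 in control_EV (SD, n = 3 each), with overlap through the third library of each group. The ratio of miR-93-5p to miR-17-5p, one guide arm of each cluster with the same seed, was 0.602, 0.763 and 0.957 in SIX2_EV and 0.515, 0.504 and 0.729 in control_EV (exact two-sided permutation p = 0.2, adjusted 0.8 over 8 ratios). Within the chromosome 5 cluster, miR-93-5p to miR-106b-5p was 3.22, 2.74 and 2.75 in SIX2_EV and 2.48, 2.60 and 2.84 in control_EV. The ratio of miR-25-3p to miR-93-5p averaged 0.869 ± 0.201 in SIX2_EV and 0.780 ± 0.112 in control_EV (SD, n = 3 each).

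Reads that matched only the X cluster were nearly absent. Its mouse RefSeq arms miR-106a-5p, miR-18b-5p and miR-20b-5p had 0 features beginning with their first 20 bases, and miR-363-3p had 1 feature with 10 reads, all in control_EV library 3. The pair of members named at X positions besides miR-19b and miR-92a were variants that differ from the mouse arm at 1 base.
mouse miR-106a-5p: cAAAGTGCtaacagtgcaggtag
deposited miR-17-5p R+1: cAAAGTGCttacagtgcaggtagc
mouse miR-20b-5p: cAAAGTGCtcatagtgcaggtag
deposited bta-miR-20b R+1: cAAAGTGCtcacagtgcaggtag
The difference is A10T for miR-17-5p R+1, whose first 23 bases are those of miR-17-5p, and T12C for the bovine-named miR-20b. They were listed at 0 in SIX2_EV. In control_EV miR-17-5p R+1 had 5 and 2.5 reads in libraries 2 and 3, and the miR-20b form had 2.5 reads in library 3. A horse-named miR-17 with 2 further bases, which had no mouse position, was listed at 0 in SIX2_EV and had 5 and 14 reads in control_EV libraries 2 and 3.

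The passenger arms were read against their guide arms. miR-17-1-3p had 29, 24 and 71 reads in SIX2_EV and 81, 166 and 378 reads in control_EV. Its CPM averaged 312 ± 31.6 in SIX2_EV and 350 ± 60.5 in control_EV (SD, n = 3 each), and the log2 fold change was -0.17 (SE 0.39, edgeR adjusted p = 0.894). The 5p share of the miR-17 hairpin was 90.8% ± 3.20 in SIX2_EV and 94.7% ± 1.49 in control_EV (SD, n = 3 each; exact two-sided permutation p = 0.2, adjusted 0.467 over 7 hairpins). The 5p arm was thus the major one in every library.

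Among the 7 hairpins compared, miR-106b had the highest mean passenger share in both groups. miR-106b-3p had 30, 9 and 53 reads in SIX2_EV and 78, 92 and 456 reads in control_EV, and the 5p share was 79.1% ± 8.79 in SIX2_EV and 81.5% ± 6.999 in control_EV (SD, n = 3 each; exact permutation p = 0.8, adjusted 0.933). Its log2 fold change was -0.50 (SE 0.54, edgeR adjusted p = 0.763). For miR-25 the 3p arm is the guide, and miR-25-5p had 13, 10 and 86 reads in SIX2_EV and 51, 55 and 268 reads in control_EV. It was the one tested member with a positive log2 fold change, 0.23 (SE 0.68, edgeR adjusted p = 0.937), which became -0.85 on total counts. Its highest CPM value, 391 in SIX2_EV library 3, stood beside 124 and 140 in the other SIX2_EV libraries and 187, 138 and 240 in control_EV. Without SIX2_EV library 3 the log2 fold change of miR-25-5p was -0.38.

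The passenger arms of miR-18a and miR-20a were listed in no SIX2_EV library and in every control_EV library. miR-18a-3p, deposited as rno-miR-18a-3p_R+2, had 0, 0 and 0 reads in SIX2_EV and 11, 20 and 37 reads in control_EV (edgeR adjusted p = 0.361, DESeq2 adjusted p = 0.0351). In CPM its control_EV mean was 41.1 ± 8.52 (SD, n = 3), below the 46.8 CPM that 5 reads are worth on average in the SIX2_EV libraries, so no fold is given. At the control_EV ratio of 5.41% of miR-18a-5p, 3.52, 1.46 and 3.79 reads would stand in SIX2_EV libraries 1 to 3, all under the listing limit of about 5. miR-20a-3p, which did not pass the filter on low counts, had 0, 0 and 0 reads in SIX2_EV and 8, 31 and 33 reads in control_EV. At its control_EV ratio of 0.383% of miR-20a-5p, it would have 2.92, 1.82 and 3.94 reads in SIX2_EV, also under the limit. A loss of these arms relative to their guides was therefore not detectable at this depth.

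miR-92a-1-5p had 0, 0 and 19 reads in SIX2_EV and 25, 22 and 114 reads in control_EV. At the control_EV ratio of 1.04% of miR-92a-3p, SIX2_EV libraries 1 to 3 would hold 3.67, 2.54 and 12.1 reads, so the 2 zeros lie under the listing limit. The log2 fold change was -1.37 (SE 1.498, edgeR adjusted p = 0.763). miR-93-3p was listed in control_EV library 3 alone, with 9 reads, and miR-92b-5p had 6 reads in SIX2_EV library 3 and 8 reads in control_EV library 3.

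Of 12 relatives outside these names, grouped by a related seed, a hairpin arm or a shared cluster, 3 were listed and 1 was tested. This was miR-32-5p, a miRNA with the miR-25/92 seed, at 24.3 ± 42.0 CPM in SIX2_EV, against 73.3 ± 15.7 CPM in control_EV (SD, n = 3 each; log2 fold change -1.42, edgeR adjusted p = 0.756). The embryonic stem cell miRNAs of the list, among them miR-302a-3p and miR-294-3p, were not listed. MYC is known to raise the miR-17-92 cluster and to repress a further group of miRNAs, of which 24 of 24 were listed and 23 tested. edgeR called 0 of these, and 18 had a negative log2 fold change, against a background of 167 of 210 mature features (79.5%). Their median was -0.19, beside -0.80 for the members, -0.42 for the mature features outside the members and -0.30 for all features. A part of MYC in these levels was not tested. let-7c-5p entered by its most abundant feature, whose sequence is that of let-7a-5p, and with features that carry no substitution 17 were negative, a count added after the data were seen. The smallest p in that group belonged to miR-15a-5p, a repressor of the survival factor BCL2, at 139 ± 71.3 CPM in SIX2_EV, against 299 ± 67.7 CPM in control_EV (SD, n = 3 each; log2 fold change -1.10, edgeR adjusted p = 0.574). The most abundant was let-7f-5p, at 6895 ± 1366 CPM in SIX2_EV, against 8963 ± 1572 CPM in control_EV (SD, n = 3 each; log2 fold change -0.38).

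The features most like the summed miR-17 seed family over the 6 libraries were found by the root mean square difference of centred log2 CPM, among 196 other mature features with a median difference of 0.873. miR-101a-3p and miR-101b-3p came first at 0.126, with the same values in every library, so they count as 1 pattern. For miR-101a-3p the CPM values were 2416, 2660 and 2137 in SIX2_EV, against 4453, 5538 and 3309 in control_EV. miR-148b-3p followed at 0.137, miR-210-3p, a hypoxia-induced miRNA, at 0.252 and miR-16-5p at 0.264. Among the members themselves, miR-20a-5p and miR-17-5p lay at 0.0949 and 0.1001 from the family sum of which they are the largest parts. miR-106b-5p and miR-93-5p, also in that sum, lay at 0.2431 and 0.2625, farther from it than miR-101a-3p or miR-148b-3p. miR-18a-5p, which is not in that sum, lay at 0.225, miR-19a-3p at 0.317, miR-19b-3p at 0.438 and miR-92a-3p at 0.643. All of these compare 6 libraries of 1 experiment that share their scaling.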

How the data were processed

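Total RNA was extracted with Trizol and made into TruSeq small RNA libraries, and reads were cleaned with ACGT101-miR to drop adapter dimers, repeats, junk and reads of low complexity or of common RNA classes, per the labels' protocols. The deposited table gives estimated counts per sequence and locus, which need not be whole, and a normalized signal, for which the authors multiplied each library by its own factor (0.2267 to 3.3986). The sources used here name no mapping settings, miRBase release or genome build. Rows of the same name and sequence were summed and rounded to whole reads (823 rows, 756 features), and 89.8% of values above 0 were whole within 0.05. Of 2410 sequence values above 0, 31 were under 5 and 169 equal to 5. Depth was 179621 to 421279 reads per library, and all replicate pairs differed beyond counting error (chi-square per degree of freedom 56.9 or more).

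edgeR 4.0.16 (R 4.3.3) was fitted to all features with TMM, filterByExpr (319 kept), the quasi-likelihood test and Benjamini-Hochberg adjustment at 0.05, and was tested on simulated data. DESeq2 1.42.0 and limma 3.58.1 were alternatives. Ratios and the arm shares of hairpins with at least 20 reads in each library were compared by exact two-sided permutation (SciPy 1.17.1, smallest p 0.1), and shares of a library have Wilson 95% intervals, which cover counting error only. Sequences were compared with RefSeq (GRCm38.p6) and host genes taken from GENCODE M21. The rule for names was to give every member, values per library for those tested or at 0 in one whole group and above 0 throughout the other, the smallest-p and most abundant member of each other list, and the 5 features most like the miR-17 family. Members and lists were chosen with earlier results of these data known.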

Additional observations from a re-analysis of the deposited data

How the results depend on the processing

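The call of 0 features and 0 members held in every edgeR and limma setting tried, leave-one-out fits included. DESeq2 called 20 features and 1 member, miR-18a-3p whose SIX2_EV values are all listed at 0. Its fitted log2 fold change of -4.56 is no bound, and with zeros set to 4 reads edgeR gave -0.15 (adjusted p = 0.915). On total counts the median of the members moved to -2.11, beside -1.52 for all features. Signs that turned were those of miR-25-5p (-0.85 on total counts, -0.13 with replicates 1 and 2 only), miR-19b-3p (0.0345 with DESeq2 size factors, 0.0341 by DESeq2, 0.0868 over mature features), miR-17-1-3p (0.0621 over mature features) and miR-25-3p (0.0187 with replicates 1 and 2). Leaving out 1 library gave -0.233 to 0.0805 for miR-19b-3p and -0.38 to 0.55 for miR-25-5p. Without SIX2_EV library 3, miR-17-5p was at -0.62, miR-93-5p at -0.35, miR-18a-5p at -0.60, miR-25-3p at -0.06 and miR-17-1-3p at -0.05, and miR-92a-1-5p was then at 0 in SIX2_EV. Without control_EV library 3, miR-92a-3p was at -0.46, miR-25-3p at -0.21, miR-106b-3p at -0.09 and miR-17-1-3p at -0.04. miR-106b-3p was at -0.77 without SIX2_EV library 1 and -0.14 without SIX2_EV library 2. The cause was not tested.

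Features apart and lower in SIX2_EV numbered 92 of 319 on total counts (28.8%), 30 per mature read (9.40%), 41 with DESeq2 size factors (12.9%), 157 with replicates 1 and 2 (49.2%), and 65 to 133 with 1 library left out (20.4% to 41.7%), the highest without SIX2_EV library 3. Members apart numbered 10 on total counts, 2 per mature read, 5 with DESeq2 size factors, 10 with replicates 1 and 2, and 7 to 9 with 1 library left out. These counts under other scalings were added after the data were seen.

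The 5p share difference of miR-25 was -0.542 points with replicates 1 and 2, and ranged from -1.13 to 7.04 with 1 library left out, that of miR-106b from -7.32 to 1.08. With zeros set to 4 reads the differences became -3.17 (miR-18a), -0.226 (miR-20a), 0.308 (miR-92a) and -1.16 (miR-93), so these arms rest on the listing limit. Keeping only names without an isoform suffix drops miR-92a-3p from the members. It also drops suffixed mature features such as miR-21-5p from the reads divided by, so the member share is not on the scale used above. The member share of mature reads was then 17.4% in SIX2_EV and 22.7% in control_EV. In the same order, the miR-17 family took 66.4% and 73.6%, the miR-19 family 19% and 13.3%, and miR-25/92 11.04% and 9.23%. Other arms took 1.36% and 1.36%, and the miR-106b-25 share was 29.5% and 26.2%. The miR-18 share in control_EV was 2.56%. Of all deposited reads, members took 1.60% in SIX2_EV and 6.97% in control_EV.

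With the replicate number as a block, 0 features passed and 45 had an unadjusted p under 0.05. The median of the members was then -0.80, beside -0.43 for all features. Same-numbered libraries deviated together with correlations of 0.209, 0.0669 and 0.673, so numbers were not taken as pairs, and numbers 1 and 2 did not correlate best with themselves. SIX2_EV library 2 held 27 reads of miR-18a-5p and 28 of miR-19a-3p, which limits the precision of ratios with them.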
